A study of Mus musculus with 9 samples.

Results

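Respiratory complex I, the NADH dehydrogenase of the inner mitochondrial membrane, was followed in this series through its nuclear-encoded subunit genes. The 36 genes are those whose symbols start with Ndufa, Ndufb, Ndufc, Ndufs or Ndufv followed by a number, together with Ndufab1, out of 30142 genes measured with a probe set annotated with 1 symbol. Assembly factors (Ndufaf genes) were kept apart. Ndufb4 and Ndufa11 lay on probe sets annotated with several symbols and were left out by this rule, and Ndufb1 was not analysed here.

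The hearts came from nude mice, which are immunodeficient, after permanent ligation of the left anterior descending artery. Mice entered the study 3 weeks later, in chronic heart failure with an ejection fraction under 50%, and whole hearts were excised 6 weeks after treatment. Treatment was by echo-guided needle through the closed chest into the border of the infarct. Control mice received alpha-MEM medium (2 arrays), vesicle mice the extracellular vesicles that 500000 cardiovascular progenitor cells secreted in 48 h (3 arrays), and cell mice 500000 of those cells (3 arrays), injected as 10 µL at each of 3 sites. In the sham mouse (1 array) the needle was inserted with no injection, so that all 9 arrays share the nude background, the infarct and the heart failure, and no uninfarcted heart is among them. Control 1, vesicle 1, cell 1 and the sham array belong to experiment 9, while control 2, vesicles 2 and 3 and cells 2 and 3 belong to experiment 1. The titles also give a VTS number, which is 3 on the experiment 9 arrays. It is 1 on control 2, vesicle 2 and cell 2, and 2 on vesicle 3 and cell 3. Vesicle 3 and cell 3 thus have no control with their VTS number, and the experiments also differ in VTS number. What the experiment and VTS numbers stand for is not stated. The labels do not say that each array is a separate animal, so the p-values measure the spread between these arrays, which may be in part technical. With 8 injected arrays and 1 sham array, the number of arrays sets the precision.

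Complex I takes electrons from NADH, hands them to ubiquinone and pumps protons, which the ATP synthase then uses to make ATP. Its N module oxidises NADH, its Q module reduces ubiquinone, and its membrane arm, with a proximal and a distal part, carries the proton pumps, whose core subunits are encoded in mitochondrial DNA. The heart draws most of its ATP from this chain. Of the 36 genes, 10 encode N module subunits, 5 Q module subunits, 8 subunits of the proximal and 10 of the distal membrane arm. Ndufb4b is a copy gene nearly identical to Ndufb4, so its signal is uncertain. Ndufa4, now regarded as a complex IV protein, and its paralog Ndufa4l2 carry the name but are held to lie outside the assembled complex.

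All values are log2 expression values as deposited, each compared only with the same gene on other arrays. Negative control probe sets had their 95th percentile at 7.18 to 7.28, depending on the array. On all 9 arrays 32 of the 36 genes exceeded it. Ndufab1 exceeded it on 3 arrays and Ndufa4l2 on 2, and Ndufa7 and Ndufb2 on none, so the differences of these 4 genes are those of dim probe sets. The same value recurred on 3 or more arrays for 10 of the 36 genes, against 61.2% of all genes. Array medians over all genes ran from 4.89 to 4.92, and 6358 genes had a 9-array mean above the highest of these negative control limits. Those genes are called bright here. Heart muscle markers marked the tissue as labelled: the summed log2 value of 11 cardiomyocyte genes was 124.9 to 126.5 on the 9 arrays. Vesicle 3 stood apart by its lung genes, and the main counts and medians that rest on it are also given without it.

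Of the 4 fitted comparisons, that between the experiments gave the complex I genes their largest median difference. Among the injected hearts, 35 of the 36 genes were higher in experiment 9 than in experiment 1, where 41.5% of all genes and 67.5% of bright genes were. The median fitted log2 difference was 0.095, against -0.010 over all genes and 0.030 over bright genes. Without vesicle 3 it was 0.084 with 35 higher, and after quantile normalization 0.071 with 32 higher. Sizes were small, with 0.21, or 1.16-fold, the largest (Ndufa9). None of the 36 genes and none of the 30142 passed an adjusted p of 0.05 in limma (percent called 0%), with 3845 genes at an unadjusted p under 0.05 and no call with a trended and robust prior either.

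**Figure D1:**
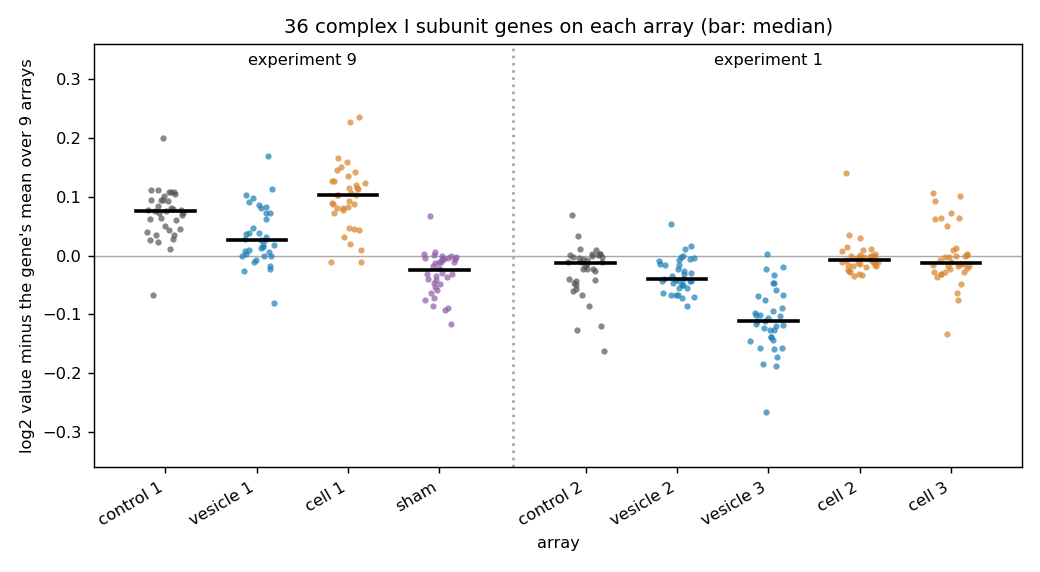
Each point is 1 of the 36 complex I genes on 1 array, plotted as the deviation of its log2 value from its own 9-array mean (vertical axis); bars are medians, and colours give the treatment. The control, vesicle and cell arrays of experiment 9 have medians of 0.076, 0.027 and 0.10, the sham array lies at -0.025, and vesicle 3 is the lowest at -0.11.

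From array to array the genes moved together. The median deviation of the 36 genes from their own means was 0.10 on cell 1, 0.076 on control 1 and 0.027 on vesicle 1, with 34, 35 and 28 genes above their means. The experiment 1 arrays other than vesicle 3 lay between -0.040 (vesicle 2) and -0.0075 (cell 2), with control 2 at -0.013 and cell 3 at -0.013. At -0.11, vesicle 3 had 1 gene above its mean. The sham array, although from experiment 9, was at -0.025 with 4 genes above their means, among the arrays of experiment 1.

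In 17 of the 36 genes all 3 injected arrays of experiment 9 were above all 5 arrays of experiment 1, which 4.18% of all genes and 12.7% of bright genes showed. No member had the opposite order (2.74% of all genes, 2.53% of bright genes). The count depends on scaling: it was 20 with arrays centred on their medians (10.2% of all genes) and 8 after quantile normalization (5.29%). Without vesicle 3 it was again 17 (4.45%). At an unadjusted p under 0.05, 27 of the 36 genes were higher in experiment 9 (6.2% of all genes) and none lower (6.56%). Without vesicle 3, 21 were higher at that p (4.54%).

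In the N module, which carries the NADH-binding end of the enzyme, 10 of 10 genes were higher in experiment 9, with a median difference of 0.11. Ndufs1, the large iron-sulfur subunit that leads electrons away from the NADH site, read 10.44 on control 1, 10.42 on vesicle 1 and 10.47 on cell 1. In experiment 1 it read 10.29 on control 2, 10.29 on vesicle 2, 10.23 on vesicle 3, 10.32 on cell 2 and 10.30 on cell 3, and the sham array gave 10.28. The injected experiment 9 arrays were thus the 3 highest and did not overlap with the others. Its fitted difference was 0.16 ± 0.019 (SE; 95% interval 0.11 to 0.21; adjusted p = 0.212 in limma), the lowest p among the members, shared with Ndufb3.

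Ndufs4, an accessory subunit whose loss in mice gives a Leigh-like encephalopathy, read 8.75 on control 1, 8.78 on vesicle 1 and 8.83 on cell 1. It read 8.60 on control 2, 8.64 on vesicle 2, 8.50 on vesicle 3, 8.66 on cell 2, 8.64 on cell 3 and 8.63 on the sham array. Again the groups did not overlap, and the difference was 0.18 ± 0.036 (adjusted p = 0.262). Ndufv1, which holds the flavin that accepts electrons from NADH, differed by 0.13 ± 0.031, and its iron-sulfur partner Ndufv2 by 0.13 ± 0.028 (adjusted p = 0.301 and 0.286). Ndufa12, an accessory subunit at the junction with the Q module, differed by 0.089 ± 0.019 (adjusted p = 0.281).

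In the Q module 4 of 5 genes were higher in experiment 9, with a median of 0.10, and the 3 core subunits measured did not move alike. Ndufs3 differed by 0.13 ± 0.042, Ndufs7, which holds the iron-sulfur cluster next to ubiquinone, by 0.036 ± 0.024, and Ndufs8, another iron-sulfur carrier, by -0.0065 ± 0.059 (adjusted p = 0.360, 0.529 and 0.977). Ndufs8 was the 1 member of 36 that was not higher in experiment 9, although with centred arrays it was (0.026), and Ndufs7 turned to -0.0054 after quantile normalization. Ndufa9, an accessory subunit close to the ubiquinone site, had the widest range over the 9 arrays, 0.47. Its values were 10.79 on control 1, 10.66 on vesicle 1, 10.71 on cell 1, 10.59 on sham, 10.43 on control 2, 10.61 on vesicle 2, 10.32 on vesicle 3, 10.60 on cell 2 and 10.60 on cell 3. No injected experiment 9 value fell among those of experiment 1, but the spread within experiment 1 was wide, and the difference was 0.21 ± 0.079 (adjusted p = 0.389).

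All 8 genes of the proximal membrane arm and all 10 of the distal arm were higher in experiment 9, with medians of 0.086 and 0.10. Ndufb3, a distal arm subunit, read 8.70 on control 1, 8.71 on vesicle 1 and 8.75 on cell 1, against 8.53 on control 2, 8.55 on vesicle 2, 8.49 on vesicle 3, 8.61 on cell 2 and 8.55 on cell 3. Its sham value of 8.69 lay with the experiment 9 arrays, unlike that of Ndufs1, and its difference was 0.18 ± 0.023 (adjusted p = 0.212). Ndufab1, the mitochondrial acyl carrier protein, which complex I also binds, read 7.30 to 7.33 on the 3 injected experiment 9 arrays and 7.07 to 7.17 in experiment 1. Those ranges straddle the negative control limit, and the difference was 0.17 ± 0.028 (adjusted p = 0.231). Ndufab1 had the same value on 4 of the 9 arrays. The X-linked genes Ndufa1 and Ndufb11 had the next widest ranges after Ndufa9, 0.37 and 0.38, each with its highest value on cell 1.

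Ndufa4 differed by 0.089 ± 0.027 (adjusted p = 0.351) and Ndufa4l2 by 0.042 ± 0.046 (adjusted p = 0.680). The former thus lay with the complex I genes and the latter within its own error of zero.

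**Figure D2:**
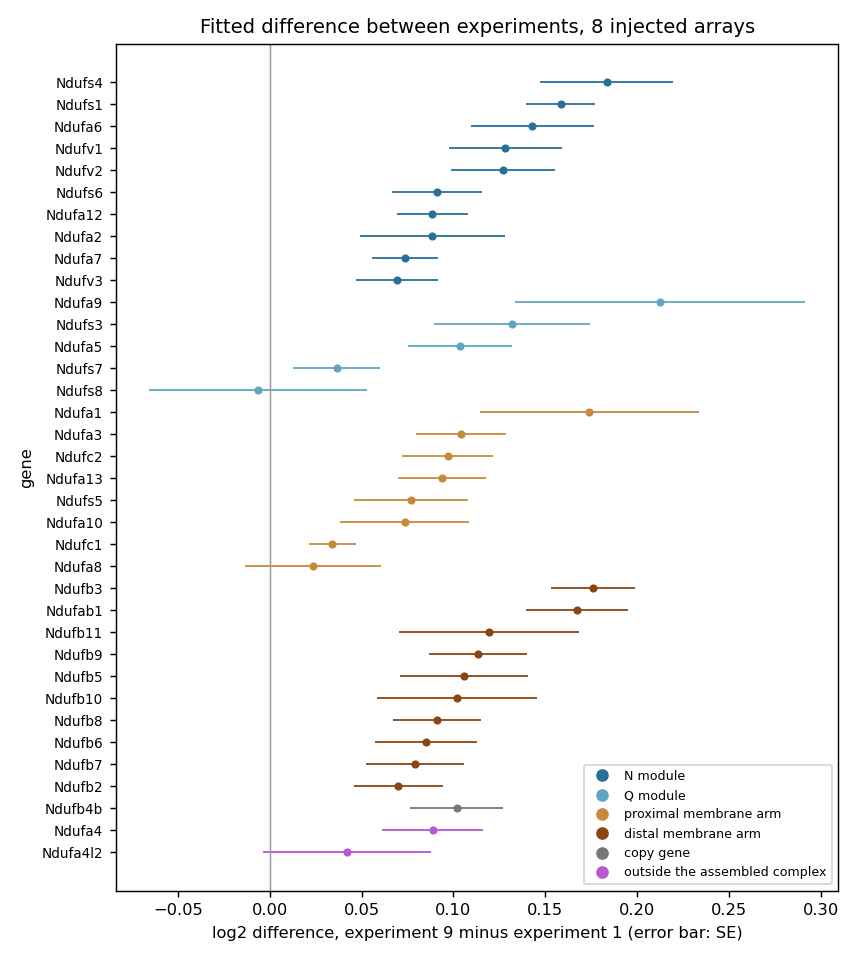
Fitted log2 difference between experiment 9 and experiment 1 (horizontal axis; bars are standard errors) for each of the 36 genes over 8 injected arrays, coloured by module. Apart from Ndufs8 at -0.0065, the points lie to the right of zero, up to 0.21 for Ndufa9.

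Other cell types differed between the experiments too. In experiment 9 the cardiomyocyte markers were higher in 11 of 11 (median 0.070; summed log2 126.1 to 126.5 on the 3 injected arrays against 124.9 to 125.6 in experiment 1). Macrophage markers were lower in 6 of 6 (median -0.28; 43.3 to 44.0 against 44.8 to 46.6), smooth muscle markers in 4 of 4 (median -0.35; 30.5 to 31.0 against 31.9 to 33.1) and atrial markers in 4 of 4 (median -0.75; 33.5 to 34.1 against 35.7 to 37.8). Fibroblast markers were lower in 6 of 7 (median -0.28; 62.1 to 64.3 against 63.2 to 65.1), and mesothelial markers in 3 of 3 (median -0.16). No marker of these lists passed the adjusted threshold, and none is at 0 on this scale. In whole hearts, fewer muscle cells and less complex I RNA per muscle cell cannot be told apart, and the part of these cell types in the complex I difference was not tested.

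Vesicle-treated hearts were compared with medium controls to ask how the failing heart's transcripts stood after the injected vesicles. Complex I genes lay below control in 32 of 36 (60.4% of all genes and 43.1% of bright genes were lower), with a median log2 difference of -0.048 against -0.012 over all genes and 0.0097 over bright genes. No gene passed the adjusted threshold in limma, with 1942 genes at an unadjusted p under 0.05 and none called under the trended and robust prior. The lower members included 10 of 10 N module genes (median -0.055), 5 of 5 Q module genes (median -0.081), 10 of 10 distal arm genes (median -0.048) and 5 of 8 proximal arm genes (median -0.033). Without vesicle 3 these were 8 of 10 (-0.034), 4 of 5 (-0.034), 7 of 10 (-0.020) and 5 of 8 (-0.023). At an unadjusted p under 0.05, 3 members were lower (4.53% of all genes) and none higher (1.91%). Without vesicle 3, 2 were lower, Ndufa5 and Ndufa13 (3.62%), and Ndufa4l2 was higher (1.69%).

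Those 3 were Ndufa5, Ndufa13 and Ndufa7. Ndufa5, an accessory subunit of the Q module, read 8.76 on control 1 and 8.72 on control 2, against 8.64, 8.57 and 8.54 on vesicles 1, 2 and 3. All 3 vesicle arrays were below both controls, and the difference was -0.14 ± 0.036 (0.91-fold; adjusted p = 0.675), with -0.12 in experiment 9 and -0.17 in experiment 1. On the cell arrays Ndufa5 read 8.78, 8.64 and 8.59, so cells 2 and 3 were also below both controls. Vesicle 1, cell 2 and the sham array held the same value, 8.64, a tie that narrows its spread.

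Ndufa13, a proximal arm subunit also studied as a cell death regulator, read 9.63 and 9.57 on the controls and 9.57, 9.49 and 9.41 on the vesicle arrays (difference -0.090 ± 0.030; adjusted p = 0.675). The highest vesicle value met the lower control. Ndufa7, an N module accessory subunit, had a difference of -0.068 ± 0.022 and was under the negative control limit on every array, with the same value on 5 of 9. Ndufa2, an N module subunit with a thioredoxin-like fold, differed by -0.12 ± 0.049, and Ndufb8, a distal arm subunit widely probed on blots as a sign of assembled complex I, by -0.069 ± 0.030. The core subunits Ndufv1, Ndufv2, Ndufs1, Ndufs3 and Ndufs7 lay between -0.081 and -0.013. Ndufs8 gave the largest fitted difference, -0.15, with an SE of 0.074 and a 95% interval from -0.34 to 0.040.

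After vesicles, 4 members lay above control (39.5% of all genes, 56.9% of bright genes): Ndufa4l2, Ndufs5, Ndufa1 and Ndufa10. Ndufa4l2, a hypoxia-inducible paralog of Ndufa4, read 7.09 and 7.14 on the controls and 7.32, 7.21 and 7.12 on the vesicle arrays, with 7.14 on each of the 3 cell arrays. Vesicles 1 and 2 were its highest arrays of all 9 and the only ones above the negative control limit, and vesicle 3 lay between the controls. The fitted difference was 0.11 ± 0.057 (adjusted p = 0.675), with 0.24 in experiment 9 and 0.022 in experiment 1. Ndufa4 itself differed by -0.032 ± 0.034. Ndufs5, a disulfide-holding subunit on the intermembrane side, read 8.12 and 7.96 on the controls and 8.09, 8.10 and 8.09 on the vesicle arrays. Control 2 was its lowest array, and the difference was 0.068 ± 0.039. Ndufs5 had the same value, 8.09, on 4 of the 9 arrays, vesicles 1 and 3 among them.

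Array by array, 16 of the 36 genes were below the control of their own experiment on all 3 vesicle arrays, a pattern of 18.3% of all genes and 13.3% of bright genes. None was above on all 3 (10.6% of all genes). On vesicles 1 and 2 alone the count below was again 16, where 23.8% of all genes showed it. The median distance from the control of the same experiment was -0.036 for vesicle 1, -0.0089 for vesicle 2 and -0.086 for vesicle 3, with 27, 20 and 34 of the 36 genes lower. Vesicle 3 was the lowest of all 9 arrays in 30 of 36 genes (9.01% of all genes, 15.7% of bright genes), and in 20 (8.59%) after quantile normalization.

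Lung genes moved with vesicle 3. The summed log2 value of 7 lung markers was 50.7 on that array, with 7 of 7 above their own means. On the other 8 it was 35.1 to 38.0, with the sham array at 38.0. The summed range was 35.5 to 35.9 on the controls, 35.3 to 50.7 on the vesicle arrays and 35.1 to 35.4 on the cell arrays. Sftpc, the surfactant protein of alveolar type II cells, read 9.75 on vesicle 3, 6.35 on the sham array and 4.28 to 4.52 elsewhere. Macrophage markers were also highest there, at a sum of 46.6. Without vesicle 3 the median complex I difference from control was -0.027 with 26 of 36 genes lower, well short of the -0.048 with it. The part of lung or macrophage RNA in the low values of vesicle 3 was not tested.

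Markers of other cell types also moved with the vesicle group. Fibroblast markers were above control in 7 of 7, with a median of 0.14 and summed log2 values of 64.3 to 65.1 on the vesicle arrays against 62.5 to 64.1 on the controls. Smooth muscle markers were above control in 4 of 4 (median 0.12; 31.0 to 32.9 against 30.5 to 31.9), with Acta2, smooth muscle actin, at 0.42 ± 0.16. Mesothelial markers were above in 3 of 3 (0.12; 18.7 to 19.7 against 18.5 to 18.7), macrophage markers in 5 of 6 (0.027) and lung markers in 6 of 7 (0.59). Atrial markers were below in 3 of 4 (-0.15; 33.6 to 35.8 against 33.5 to 36.6), with Myl7, the atrial myosin light chain, at -0.33 ± 0.12. Without vesicle 3, fibroblast markers were still above in 7 of 7 (0.14), smooth muscle in 3 of 4 (0.084), mesothelial in 3 of 3 (0.040), macrophage in 3 of 6 and lung in 1 of 7, and atrial markers below in 3 of 4 (-0.13). Endothelial markers were above control in 6 of 6 after vesicles (median 0.040) and in 6 of 6 after cells (0.068). Cardiomyocyte markers were higher in 6 and lower in 5 of 11, with a median of 0. None of these markers passed the adjusted threshold, none is at 0, and their part in the complex I values was not tested.

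Cell-treated hearts were compared with the same 2 control arrays, which the vesicle comparison also uses. The complex I genes lay above control in 29 of 36 (44.1% of all genes and 66.9% of bright genes), with a median of 0.028 against -0.0064 over all genes and 0.021 over bright genes. That median is close to the one among bright genes, while the share above control is larger than theirs. After quantile normalization 19 of 36 were above control, with a median of 0.0019. No gene passed the adjusted threshold in limma or under the trended and robust prior, 2029 genes had an unadjusted p under 0.05, and no member was among them (1.68% of all genes higher, 5.05% lower).

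The lowest p belonged to Ndufs5, which read 8.18, 8.07 and 8.09 on the cell arrays against 8.12 and 7.96 on the controls (difference 0.087 ± 0.039; adjusted p = 0.682). Each cell array was above the control of its own experiment, while cells 2 and 3 lay below control 1. The value on cell 3 was the same as on vesicles 1 and 3 and the sham array. Ndufa3, a small proximal arm subunit, differed by 0.060 ± 0.030, Ndufb4b by 0.052 ± 0.032, the dim Ndufb2 by 0.049 ± 0.030 and Ndufb3 by 0.044 ± 0.029. N module genes were above control in 10 of 10 (median 0.021), distal arm genes in 8 of 10 (0.034), proximal arm genes in 5 of 8 (0.033) and Q module genes in 3 of 5 (0.025). Ndufa4 differed by 0.028 ± 0.034 and Ndufa4l2 by 0.035 ± 0.057.

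Atrial markers moved with the cell group: 4 of 4 were above control (median 0.21; summed log2 34.1 to 37.8 on the cell arrays against 33.5 to 36.6 on the controls), with Sln, the atrial calcium pump regulator sarcolipin, at 0.50 ± 0.12 (adjusted p = 0.682). Smooth muscle markers were above in 4 of 4 (0.14; 30.6 to 33.1 against 30.5 to 31.9), mesothelial markers in 3 of 3 (0.072) and cardiomyocyte markers in 8 of 11 (0.016). Fibroblast markers were below in 6 of 7 (-0.035) and lung markers in 7 of 7 (-0.098). None passed the adjusted threshold, and their part in the complex I values was not tested.

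Of the 36 genes, 11 were above the control of their experiment on all 3 cell arrays (8.86% of all genes, 15.9% of bright genes). Ndufa13, Ndufb9 and Ndufc1 were below on all 3 (17.5%). The median distance from control was 0.025 for cell 1, 0.0024 for cell 2 and 0.0061 for cell 3. Cell 1 was the highest of all 9 arrays in 22 of 36 genes (12.2% of all genes). For Ndufb11, a distal arm subunit, it read 9.25 against 9.09 on control 1, whereas cell 2 read 9.06 against 9.02 on control 2 and cell 3 lay below that control. Its difference was 0.066 ± 0.061.

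**Figure D3:**
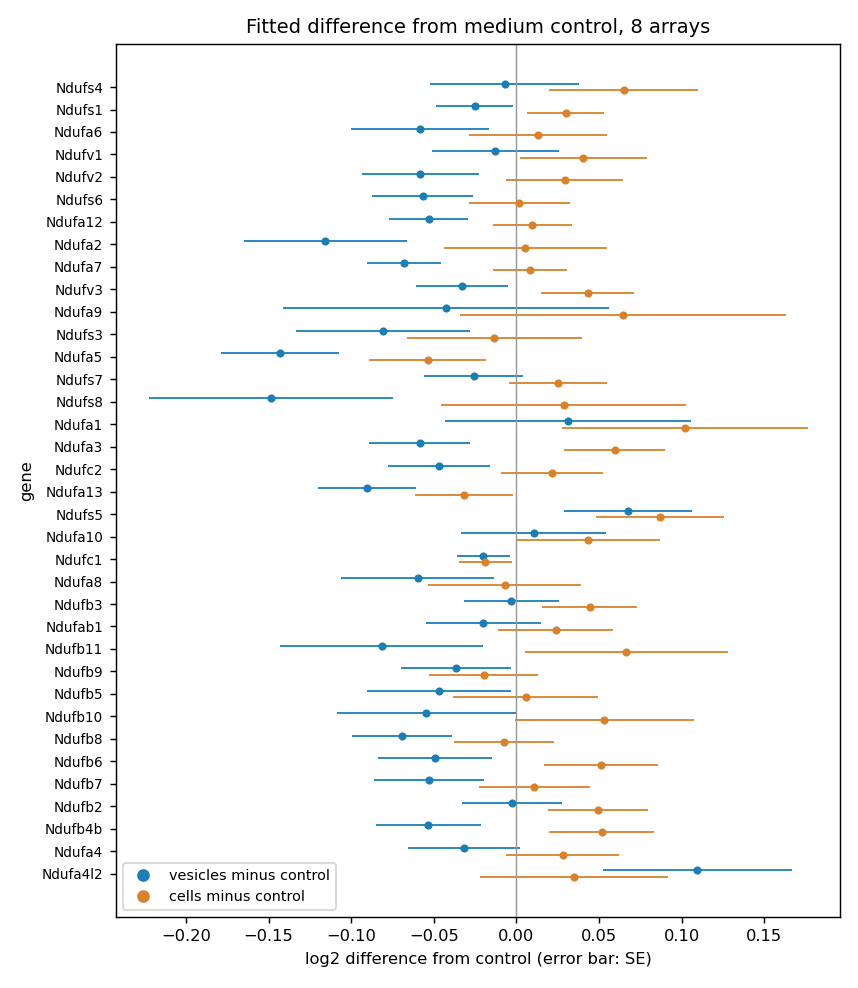
Fitted log2 differences from medium control (horizontal axis; bars are standard errors) for the 36 genes after vesicles (blue) and cells (orange), over 8 injected arrays with the experiment as a block. Both sets share the control arrays; blue points lie below zero for 32 genes and orange points above zero for 29.

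The promoters of Ndufa5 and Ndufs5 are set side by side because these genes had the lowest p in the vesicle and the cell comparison. Their fitted differences after vesicles also had opposite signs. Promoter windows of 300 bases (250 before and 50 after the annotated start) were matched for 32 of the 36 genes, in 34 windows, from RefSeq GRCm38.p6. Ndufs1, Ndufa2, Ndufa4l2 and Ndufb9 had no match. NRF1, a nuclear respiratory factor known to bind many genes of the respiratory chain, was searched as GCGCA, then any base, then GCGC, on both strands. It was found in 6 of 34 member windows, or 17.6% against 4.60% of 32851 windows of the table. By gene it was found in 5 of 32, because overlapping windows of Ndufa5 hold the same site. In Ndufa6, not shown, the match lies 23 to 32 bases past the start. The stretches lie before the start, on the strand of the gene, with the match in capitals: Ndufa5 at chr6:24527691-24527746 (minus strand), Ndufs5 at chr4:123718255-123718314 (minus), Ndufs6, whose probe set the annotation lists under 1 symbol but also under the gene number of the pseudogene Ndufs6b, which makes its signal uncertain, at chr13:73328483-73328528 (minus), and Ndufa8 at chr2:36049339-36049398 (minus).
Ndufa5: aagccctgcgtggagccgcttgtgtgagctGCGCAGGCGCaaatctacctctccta
Ndufs5: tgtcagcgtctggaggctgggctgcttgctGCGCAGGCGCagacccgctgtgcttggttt
Ndufs6: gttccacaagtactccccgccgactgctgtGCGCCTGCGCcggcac
Ndufa8: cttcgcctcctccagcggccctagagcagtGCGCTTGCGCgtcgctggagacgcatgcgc
Ndufa5 and Ndufs5 thus hold the same letters, GCGCAGGCGC, on the same strand, while their fitted differences after vesicles were -0.14 and 0.068. In Ndufs6 and Ndufa8 the match is on the opposite strand, and their differences were -0.057 ± 0.031 and -0.060 ± 0.046.

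The letters AANATGGCG, searched for YY1, another factor known at promoters of mitochondrial genes, were found in 7 of 34 windows (20.6%, against 2.38% of all windows). Ndufa7 at chr17:33824597-33824644 (plus strand) and Ndufb11 at chrX:20617802-20617860 (minus) are shown because the match lies before the start and both genes had an unadjusted p under 0.05 between vesicles and cells.
Ndufa7: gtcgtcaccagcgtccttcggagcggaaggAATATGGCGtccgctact
Ndufb11: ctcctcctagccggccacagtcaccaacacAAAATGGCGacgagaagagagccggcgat
In the other 5 genes (Ndufa9, Ndufc1, Ndufs4, Ndufs6 and Ndufs7) the match lies 22 to 43 bases past the start. The ETS letters CCGGAAG, read by the respiratory factor GABPA, were in 4 windows (11.8% against 8.86%), those of Ndufb6, Ndufb7, Ndufs3 and Ndufs8. The letters TNAAGGTCA, searched for the estrogen-related receptor, were in none of the 34 windows and in 1.28% of all. Member windows had a median GC content of 59.0% against 52.7% in the table, and the NRF1 letters are themselves rich in G and C. A match is a match of letters and not a measured binding site.

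Vesicles were compared with cells directly, since the series sets one against the other. The complex I genes were lower after vesicles in 35 of 36 (52% of all genes, 56.4% of bright genes), with Ndufa4l2 the 1 member above (46.7%), at 0.075 ± 0.050. The median log2 difference was -0.063 against -7e-04 over all genes and -0.0078 over bright genes. No gene passed the adjusted threshold in limma or under the trended and robust prior, and 1309 genes had an unadjusted p under 0.05. Of the members, 12 had an unadjusted p under 0.05, all lower after vesicles (2.59% of all genes; 1.75% were higher). Without vesicle 3 the count of lower members fell to 3, Ndufa3, Ndufa7 and Ndufb4b (2.35%). Ndufa4l2 was then higher at that p, at 0.12 ± 0.042, and the share of all genes higher was not counted. After quantile normalization 30 of 36 were lower, with a median of -0.051.

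Those 12 comprised 6 N module genes (Ndufa7, Ndufv3, Ndufa12, Ndufv2, Ndufa2 and Ndufs1), the Q module genes Ndufa5 and Ndufs8, Ndufa3 of the proximal arm, Ndufb6 and Ndufb11 of the distal arm, and Ndufb4b. Ndufa3 read 8.70, 8.61 and 8.57 on vesicles 1, 2 and 3 and 8.79, 8.70 and 8.75 on cells 1, 2 and 3. Vesicle 1 and cell 2 met at 8.70, and within each experiment the vesicle arrays were the lower ones. Its difference was -0.12 ± 0.027 (0.92-fold; adjusted p = 0.92), with -0.088 in experiment 9 and -0.13 in experiment 1.

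Ndufb4b read 11.47, 11.45 and 11.39 after vesicles and 11.63, 11.50 and 11.49 after cells (difference -0.10 ± 0.028). Ndufs8 read 10.06, 10.11 and 9.95 after vesicles and 10.13, 10.28 and 10.25 after cells, a difference of -0.18 ± 0.066 (0.88-fold). In these 2 genes all 3 vesicle arrays were below all 3 cell arrays, which 2.56% of all genes showed. Vesicles 1 and 2 alone were below all 3 cell arrays in the same 2 genes (6.71%). Ndufb6, a distal arm subunit, differed by -0.10 ± 0.031, Ndufv3, a small N module subunit, by -0.076 ± 0.025, and the dim Ndufa7 by -0.076 ± 0.020. Of the other core subunits, Ndufv2 differed by -0.088 ± 0.031 and Ndufs1 by -0.055 ± 0.021. Ndufv1 (-0.053), Ndufs3 (-0.068) and Ndufs7 (-0.051) were lower with 95% intervals that include zero.

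In 18 of 36 genes the vesicle arrays were below the cell arrays within both experiments (5.71% of all genes, 9.22% of bright genes), and in none above (4.38%). Without vesicle 3 it was 19 (11.9% of all genes). Averaged over the 36 genes, the difference was -0.068 ± 0.022 (SE over arrays), with a residual SD between arrays of 0.027. The same average was -0.041 ± 0.025 for vesicles against control and 0.026 ± 0.025 for cells against control. Between the experiments it was 0.10 ± 0.020. These averages include vesicle 3, and none was tested. Without vesicle 3 the median difference of vesicles from cells was -0.043 with 34 of 36 lower. Without vesicle 3 and cell 3 it was -0.046 with 33 lower. Beside this, fibroblast markers were higher after vesicles than after cells in 7 of 7 (median 0.20; sums of 64.3 to 65.1 against 62.1 to 64.4), cardiomyocyte markers were lower in 8 of 11 (-0.032) and atrial markers in 3 of 4 (-0.41; 33.6 to 35.8 against 34.1 to 37.8). Lung markers were higher in 7 of 7 (0.62) and macrophage markers in 5 of 6 (0.11), and without vesicle 3 in 3 of 7 and 4 of 6. Their part in the complex I difference was not tested. No member's treatment difference from control passed the adjusted threshold for a difference between the experiments themselves (lowest adjusted p = 0.107 for vesicles and 0.13 for cells, with 2 residual degrees of freedom).

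The sham heart was compared with the control heart of the same experiment, 1 array against 1, so there is no replicate check. All 36 complex I genes were lower on the sham array than on control 1 (40.9% of all genes, 48.4% of bright genes), with a median of -0.10 and a range from -0.20 to -0.0097. The median over all genes was 0. The count was 36 of 36 also after centring (66.6% of all genes) and quantile normalization (53.7%). Ndufa9 read 10.59 on sham against 10.79 on control 1, Ndufb8 7.98 against 8.17, and Ndufb11 8.90 against 9.09. The smallest gaps were those of Ndufa4l2, 7.08 against 7.09, and Ndufb3, 8.69 against 8.70.

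In 29 of 36 genes the sham array was below all 3 injected arrays of experiment 9 (20.2% of all genes, 29.7% of bright genes). It lay within the range of the 5 experiment 1 arrays in 29 of 36 (69.8% of all genes, 59.3% of bright genes), with a median distance of 0.018 from their mean. Within the range of the 4 arrays other than vesicle 3 it lay in 21 of 36 (66.6% of all genes). Other cell types moved with it: against control 1, fibroblast markers were higher on the sham array in 7 of 7 (median 0.28; summed log2 65.3 against 62.5), macrophage markers in 6 of 6 (0.22; 44.8 against 43.3) and smooth muscle markers in 4 of 4 (0.32; 31.8 against 30.5). Atrial markers were higher in 3 of 4 (0.17) and mesothelial markers in 2 of 3 (0.20). Cardiomyocyte markers were lower in 10 of 11 (-0.066; 125.3 against 126.2) and endothelial markers in 6 of 6 (-0.10, the lowest at -0.49; 53.5 against 54.6). Lung markers were higher in 3 of 7, lower in 2 and equal in 2, with a summed log2 of 38.0 against 35.5. Among them Sftpc read 6.35 on the sham array and 4.51 on control 1. The part of these cell types in the sham values was not tested.

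The other parts of the respiratory chain were set beside complex I, from lists of known members. In experiment 9 against experiment 1 the median difference was 0.13 for 4 complex II genes (4 higher), 0.080 for 9 complex III genes (9 higher), 0.098 for 13 complex IV genes (11 higher) and 0.084 for 15 ATP synthase genes (14 higher). These lie around the complex I value of 0.095. Between vesicles and cells the medians were -0.041, -0.067, -0.069 and -0.038 in that order, and vesicles were lower for 3, 8, 9 and 13 genes. From control, vesicle medians were -0.027, -0.038, -0.027 and -0.023, and cell medians 0.027, 0.033, 0.022 and 0.013. Without vesicle 3 the vesicle medians were 2e-04, -0.010, -0.013 and -0.0018 from control, and -0.0025, -0.040, -0.052 and -0.016 from cells. No gene of these lists passed the adjusted threshold in any comparison. Cox8b, the heart and muscle form of a complex IV subunit, had the lowest p among them for vesicles against control, with a difference of -0.11 ± 0.015 (adjusted p = 0.591). Sdha, the flavoprotein of complex II, lay the other way, at 0.14 ± 0.036.

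**Figure D4:**
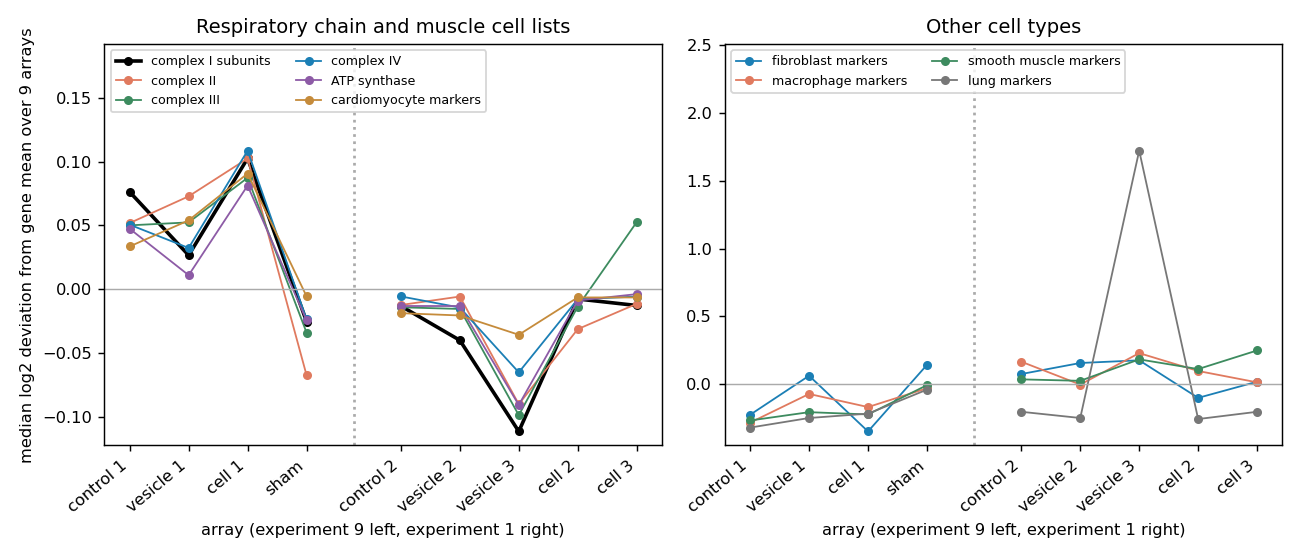
Median log2 deviation from each gene's 9-array mean (vertical axes, different scales) for each list on each array, experiment 9 on the left of the dotted line. On the left panel complex I (black) and the other respiratory complexes are highest on cell 1 and lowest on vesicle 3, where complex I is at -0.11; on the right panel lung markers stand at 1.72 on vesicle 3.

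The assembly factors, which build complex I but do not stay in it, were set beside the subunits they serve. For 15 of them measured, the median was 0.044 between the experiments (14 higher), -0.015 for vesicles against control and 0.0098 for cells against control. Ndufaf4 was among the higher ones after cells: it read 8.26, 8.15 and 8.17 on the cell arrays and 8.13 and 8.03 on the controls. Each cell array was above both controls, with a difference of 0.13 ± 0.026 (adjusted p = 0.682). After vesicles Ndufaf4 was higher too, at 8.21, 8.13 and 8.06 on vesicles 1, 2 and 3. Each vesicle array was above the control of its own experiment, and the difference was 0.070 ± 0.026 (adjusted p = 0.675 in limma).

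Of the 7 subunits encoded in mitochondrial DNA, ND2, ND3 and ND6 were measured. ND2, a proton-pumping subunit, read 12.51 to 12.65 on the 9 arrays, and its experiment difference was 0.022 ± 0.032. ND3 differed by 0.13 ± 0.062 and ND6 by 0.0045 ± 0.13. Between vesicles and cells ND2 gave 0.0040 ± 0.036 and ND3 -0.0037 ± 0.069. The standard errors of ND3 and ND6 are wide enough to include the nuclear median of 0.095. For 12 regulators of mitochondrial gene expression the medians were 0.024 between experiments and -0.017 both for vesicles against control and for vesicles against cells.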

How the data were processed

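Total RNA of whole hearts was measured on Affymetrix whole-transcript arrays, per the labels' protocols. The deposited values, 1 per probe set and array, were taken as log2 from their range; the sources used here do not give how the authors corrected background, summarised probes and scaled arrays. The submitters' processing notes name Partek, with neither its role nor a version. Tied values are a feature of the deposited table and narrow the spread of such genes. Of 80202 probe sets, 30604 had 1 gene symbol; the probe set with the highest mean was kept for each of 30142 genes. Symbols followed the RefSeq table of GRCm38.p6.

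The 8 injected arrays, without the sham array, were fitted by limma 3.58.1 under R 4.3.3 (lmFit, eBayes), with treatment and experiment as terms (4 residual and 1.18 prior degrees of freedom). Tests were two-sided, with Benjamini-Hochberg adjustment over all genes at 0.05; ± is the SE of a fitted difference. The fit was tested on simulated data whose changes were larger than any member difference reported here. Recovery of changes of the sizes reported here was therefore not tested. Alternatives were other blocks, scalings, filters, priors, sham pooled with control, and each array left out; leaving out tied genes, or vesicle 3 with cell 3, and counts of members without vesicle 3 were added after seeing the data.

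The members and gene lists were chosen with earlier results of these data known; list symbols were later respelled to match the annotation, and no list was tested as a set. Members with full values were the 5 with the lowest p in a comparison, the core subunits, Ndufa4, Ndufa4l2 and the 3 with the widest range; others are named where a count or promoter singles them out, after their values were seen.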

Additional observations from a re-analysis of the deposited data

How the results depend on the processing

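Over the alternatives run, 204 of the summary values changed little and 8 moved. Changed little meant less than 0.026 for a median, the SD between arrays of the median over members. For a count it meant less than 1.5 times. Many of the 204 are call counts that were 0 in the main fit and stayed 0. The limit of 0.026 is also wide for these medians. For vesicles against control, -0.027 with 10 of 36 higher under centred arrays counted as little changed from -0.048 with 4 higher. The members followed singly stayed short of the adjusted threshold in each alternative run, but 73 of 1792 of their values changed sign, from reported differences of up to 0.064 in size. Among those were 8 with centred arrays, 9 with sham pooled with control and 11 after quantile normalization (vesicles against control: Ndufa9 to 0.035 and Ndufs1 to 0.013). Without vesicle 3 there were 6 (Ndufa9, Ndufab1, Ndufb2, Ndufb3, Ndufs4 and Ndufv1, to 0.0083 to 0.033). Others were 8 without control 2, 4 without control 1, 6 with the VTS number as a block and 4 with no block. The array medians that moved were control 2, to -0.059 with centred arrays, and cell 1, to 0.063 after quantile normalization. For cells against control the median complex I difference was 0.058 (34 of 36 higher) with arrays centred on their medians and 0.0019 after quantile normalization, and without the experiment as a block it was 0.011. Between the experiments it was 0.13 (36 of 36 higher) with centred arrays. For vesicles against control it was -0.020 (10 higher) with sham pooled with control. The call counts that moved held no complex I gene: 1 gene for cells against control with sham pooled, 2 genes between the experiments without tied genes, and, without control 1, 823 genes (200 higher) for vesicles and 901 (207 higher) for cells, where the spread of the other arrays has to stand for that of the lone control. The cause was not tested. Leaving out each array in turn gave medians of -0.058 to -0.027 (vesicles against control; the latter without vesicle 3), 0.018 to 0.031 (cells against control; the former without control 1), -0.086 to -0.043 (vesicles against cells) and 0.084 to 0.11 (between experiments), with 0 to 823, 0 to 901, 0 and 0 genes called. The replicate number is the same in every title, so it pairs no arrays. The VTS number of the titles is shared by arrays of different treatments, and with it as a block in place of the experiment the median was -0.036 (8 of 36 higher) for vesicles against control, 0.039 (31 higher) for cells against control and -0.063 for vesicles against cells, with no gene called; it and the fit with no block give no experiment difference. Differences of genes under the negative control limit are bounded by the background, and with 2 control arrays small differences were not detectable.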
